A study of Danio rerio with 10 samples.

Results

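The 10 genes described here belong to zebrafish epithelial cells and are the type II keratins krt4, krt5 and krt8, the type I keratins krt15, krt17, krt91, krt92, cyt1 and cyt1l, and epcam. They are 10 of 32265 genes listed in the expression tables, matched by gene name. The genes were chosen from their levels and ratios in these same tables, so all values below are a description. Keratins are the intermediate filament proteins of epithelial cells, and a filament is built from pairs of a type I (acidic) and a type II (basic) chain. The young zebrafish embryo is covered by the enveloping layer and later by a bilayered epidermis of periderm over basal keratinocytes, each with its own keratins. epcam encodes the epithelial cell adhesion molecule, a transmembrane glycoprotein of epithelial cells, and in zebrafish its mRNA is also supplied to the egg by the mother.

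RNA was sequenced from AB strain zebrafish carrying human tropomyosin 3 as TPM3(WT), TPM3(E151A) or TPM3(E151G), in which 1 glutamate is replaced by alanine or glycine. The 3 genotypes are called WT, E151A and E151G below, so WT is a transgenic control. Every group, controls included, carried the transgene behind the promoter of myosin light chain 2, a muscle gene, together with a green heart reporter, and no non-transgenic sample was analysed here. Adult muscle at 6 months had 2 libraries per genotype, but the tables hold 1 combined value for each. Embryos labelled as whole embryos of 2 days had 1 library each for TPM3(WT), TPM3(E151A), untreated TPM3(E151G), and TPM3(E151G) immersed in 10 µM L-carnitine, a compound that serves fatty acid transport into mitochondria. The labelled treatment ran from 28 hpf (hours post-fertilization) to 7 dpf (days post-fertilization), past the labelled age, and the study's text calls the embryo material muscle, so age and tissue of the embryo samples could not be settled. The compound was compared in 1 genotype at 1 dose.

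Levels are FPKM (fragments per kilobase, scaled to library size), which allows genes to be compared with each other. Ratios are log2 of (FPKM + 1) in one condition over (FPKM + 1) in the other. Compared were genes that reached an FPKM of 1 in either condition, and a gene at least 2-fold apart on that scale is called higher or lower. With no value per adult library and 1 library per embryo condition, there is no error, interval or test for any value, and neighbouring levels cannot be separated from replicate spread. In bulk RNA, fewer cells of a type and less RNA per cell cannot be told apart.

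The tissue labels were checked with marker lists. The 21 rows of a skeletal muscle list summed to between 51807 and 89860 FPKM in all 7 conditions. The adult samples also held RNA of an oocyte list, whose 11 genes summed to 3014 FPKM in WT, 955 in E151A and 512 in E151G, against at most 1.94 in any embryo sample. Pigment cell genes of the skin summed to between 7.15 and 9.21 FPKM in adults and to between 482 and 569 in embryos. The FPKM of all genes did not sum to the same total, running from 712329 in adult WT to 1404247 in adult E151G, and mitochondrial genes made up 25.9% and 47.6% of these sums. Adult ratios that involve E151G therefore depend on how the samples are scaled, and are given with that range where it matters.

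**Figure D1:**
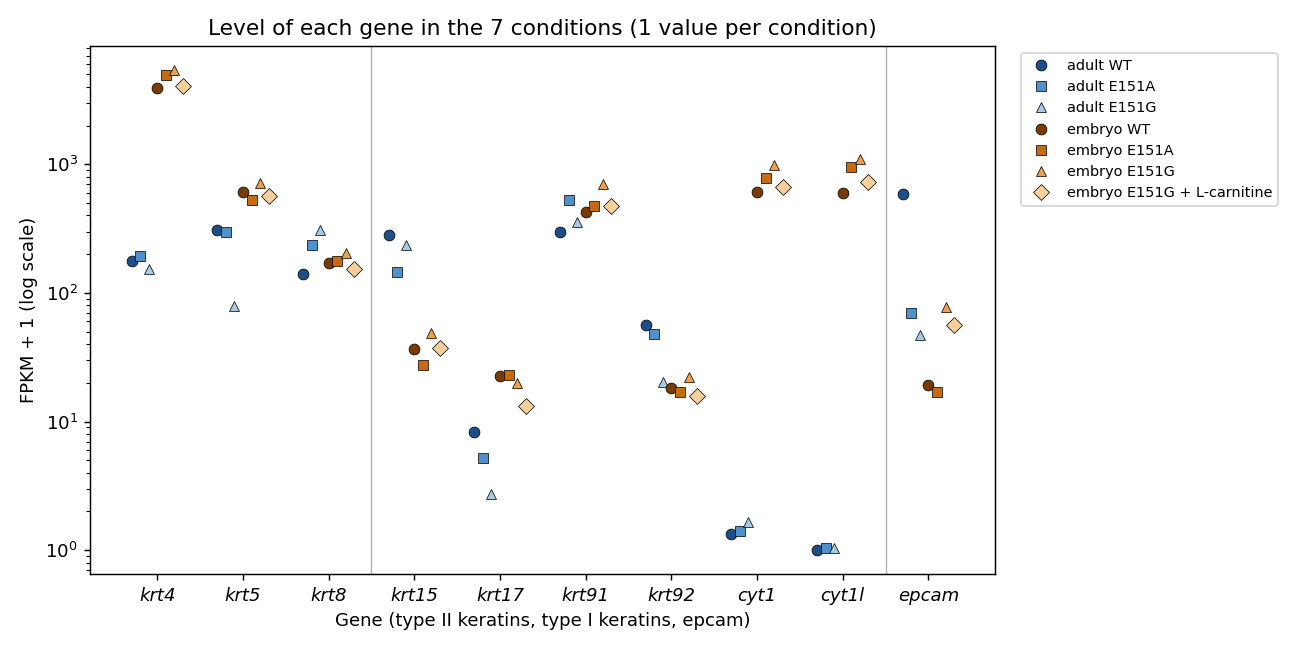
Level of each gene in the 7 conditions, as FPKM + 1 on a log axis, with 1 point per condition and genes grouped into type II keratins, type I keratins and epcam. cyt1 and cyt1l stand under 1 FPKM in the 3 adult samples and at 601 or more in the 4 embryo samples, and epcam stands at 583 FPKM in adult WT and under 80 elsewhere.

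krt4, a type II keratin of the superficial epidermis whose promoter is widely used to label zebrafish skin, was the most abundant of the 10 genes in embryos. It is on chromosome 6, from 39310961 to 39315491 (GRCz11). Its level was 3887 FPKM in embryo WT, 4939 in E151A, 5409 in E151G and 4058 with L-carnitine. It ranked between 12 and 14 among all listed genes in each of these 4 libraries. In adults it was at 175, 192 and 153 FPKM in WT, E151A and E151G. The highest adult value was 1.25 times the lowest on the deposited scale and 2.31 times as a share of all FPKM.

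krt5 and krt8 are neighbouring type II genes on chromosome 23, with krt5 from 10238225 to 10242488 and krt8 from 10314655 to 10319318. krt5 was at 306 FPKM in adult WT, 298 in E151A and 77.8 in E151G. krt8, a keratin of simple epithelia that pairs with krt18, went the other way, with 140, 233 and 310 FPKM. Among the adult samples, E151G thus had the lowest krt5. It had the highest krt8 on the deposited scale, where the log2 ratio of krt8 in E151G over E151A was 0.41. That ratio changed sign under 2 of 6 alternatives, and was -0.47 with equal FPKM sums. In embryos krt5 was at 603, 524, 714 and 563 FPKM in WT, E151A, E151G and E151G with L-carnitine. krt8 was at 171, 176, 204 and 153 FPKM in the same order, so the highest embryo value was 1.36 times the lowest for krt5 and 1.34 times for krt8.

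The ratio of krt8 to krt5 within a sample does not depend on scaling between samples. It was 0.457 in adult WT, 0.781 in E151A and 3.98 in E151G, and between 0.271 and 0.336 in the 4 embryo libraries. Adult E151G was the only one of the 7 conditions in which krt8 exceeded krt5.

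krt15, a type I keratin on chromosome 11 from 11532156 to 11534848, had a larger value in each adult sample than in any embryo library. Its level was 281 FPKM in adult WT, 143 in E151A and 234 in E151G. The embryo libraries held 35.7, 26.6, 47.8 and 36.0 FPKM in WT, E151A, E151G and E151G with L-carnitine. On the deposited scale E151A had the lowest value of its stage in both adults and embryos, at 0.510 and 0.747 times WT. As a share of all FPKM, adult krt15 was instead lowest in E151G, at 0.0167% against 0.0189% in E151A.

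The other type I keratins, krt17, krt91, krt92, cyt1 and cyt1l, are listed under 1 shared interval of chromosome 19, from 5433425 to 5464284. In the RefSeq annotation (GRCz12tu) the 5 genes lie in the order krt92, cyt1l, cyt1, krt17, krt91, with LOC141378998 between krt92 and cyt1l. They are close relatives, and how reads shared between them were assigned is not stated in the sources consulted, so each single level carries that uncertainty.

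krt91 was the most abundant type I keratin in adults, at 294 FPKM in WT, 522 in E151A and 353 in E151G. In embryos it was at 424, 474, 699 and 472 FPKM in WT, E151A, E151G and E151G with L-carnitine. Unlike its neighbours it was thus high at both stages.

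krt92 was at 54.9, 47.2 and 19.5 FPKM in adult WT, E151A and E151G, and between 14.9 and 21.1 in the embryo libraries. krt17 was at 7.27, 4.25 and 1.72 FPKM in the adults and between 12.1 and 22.0 in embryos. Both genes were lowest among the adults in E151G, in the same order of genotypes as krt5.

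cyt1 and cyt1l, named for the type I cytokeratin of the enveloping layer, were embryo genes. cyt1 was at 607, 786, 986 and 667 FPKM in embryo WT, E151A, E151G and E151G with L-carnitine. cyt1l was at 601, 951, 1103 and 723 FPKM in the same order, so both genes were highest in untreated E151G. In adults cyt1 reached no more than 0.657 FPKM, and cyt1l was listed at 0 in WT and at no more than 0.0472 in the mutants. The 2 genes kept nearly the same proportion to each other, with a ratio of cyt1l to cyt1 between 0.991 and 1.21 in the embryo libraries.

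epcam, on chromosome 13 from 8508748 to 8511340, had the widest spread among genotypes of a stage. It was at 583 FPKM in adult WT, 69.0 in E151A and 46.3 in E151G. In embryos it was at 18.4 FPKM in WT and 16.1 in E151A, against 76.9 in E151G and 54.9 in E151G with L-carnitine. The 2 adult mutants stood far under adult WT, while both E151G embryo libraries stood above the other embryo libraries.

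The composition of the keratins was compared next, since shares within a sample are free of scaling between samples. The 9 keratins summed to 1259, 1440 and 1149 FPKM in adult WT, E151A and E151G. In embryos the sums were 6368, 7914, 9202 and 6698 FPKM in WT, E151A, E151G and E151G with L-carnitine. As a share of all FPKM, these keratins were 0.177%, 0.190% and 0.0818% in the adults, and between 1.11% and 1.24% in the embryos. With epcam added, all 10 genes made up 0.259%, 0.199% and 0.0851% in the adults and between 1.11% and 1.25% in the embryos.

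The adult keratins were spread over several genes, while those of the embryo were mostly krt4. In adult WT, krt5 made up 24.3% of the sum, krt91 23.4%, krt15 22.3%, krt4 13.9% and krt8 11.1%. In embryo WT, krt4 made up 61.0%, followed by cyt1 with 9.53%, krt5 with 9.47% and cyt1l with 9.44%. The share of krt4 stayed between 58.8% and 62.4% in the 4 embryo libraries.

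Among adults, the shares that differed most were those of krt5, krt8, krt15 and krt91. krt5 made up 24.3%, 20.7% and 6.77% in WT, E151A and E151G, and krt8 11.1%, 16.2% and 27.0%. krt91 was the leading keratin of both mutants, with 36.3% and 30.7%, and krt15 had 9.96% in E151A against 22.3% in WT and 20.4% in E151G. krt4 held between 13.3% and 13.9% in all 3.

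The balance of type II and type I chains among the 9 keratins differed between stages. The ratio of the summed type II to the summed type I members was 0.973 in adult WT, 1.007 in E151A and 0.888 in E151G. In embryos it was 2.73, 2.48, 2.2 and 2.48 in WT, E151A, E151G and E151G with L-carnitine. The sums leave out other abundant type I keratins: krtt1c19e of basal keratinocytes in the embryos, and krt18, KRT18 (1 of many) of chromosome 6 and krt94 in the adults. With these 4 rows added to type I, a choice made after the values were seen, the ratio was 0.803, 0.716 and 0.535 in adult WT, E151A and E151G, and between 1.63 and 1.93 in the embryos.

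**Figure D2:**
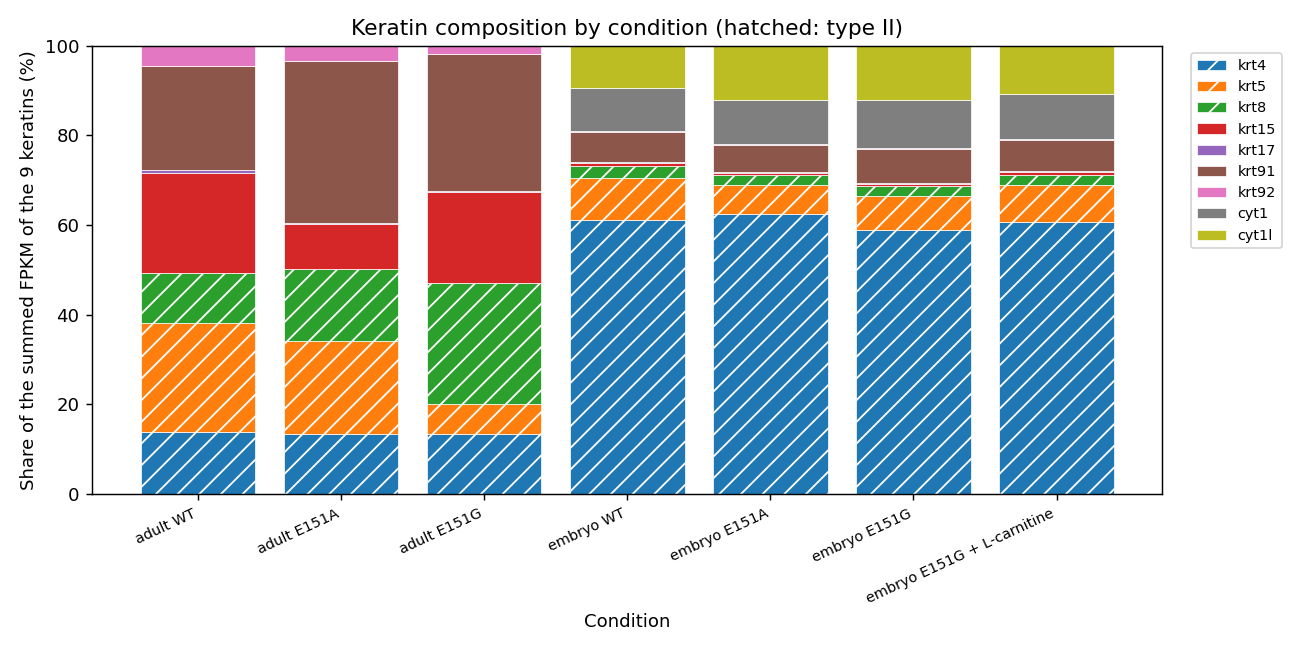
Share of each keratin in the summed FPKM of the 9 keratins, as stacked bars for each condition, with type II genes hatched. krt4 fills 58.8% to 62.4% of the 4 embryo bars, and in the adult bars the krt5 segment is 24.3%, 20.7% and 6.77% while the krt8 segment is 11.1%, 16.2% and 27.0%.

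The first comparison asked how adult muscle with E151A differed from WT. Of the 10 genes, 8 reached the FPKM minimum, since cyt1 and cyt1l did not. One of them, epcam, was lower and 0 were higher, where 19.2% of all 16865 genes compared were lower and 9.90% higher. The median log2 ratio of the 8 genes was -0.13, against -0.22 over all genes compared. Under median-of-ratios scaling these medians were 0.22 and 0.06.

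epcam was 8.45-fold lower in E151A, a log2 ratio of -3.06 that ranked 26 from the lowest. krt15 followed with a log2 ratio of -0.97, and krt91 and krt8 had the highest ratios at 0.83 and 0.73. The keratins as a sum were 14.4% above WT.

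For adult E151G against WT, 4 of the 8 genes were lower (epcam, krt5, krt17 and krt92) and 1 was higher (krt8). Over all 16572 genes compared, 25.5% were lower and 17.4% were higher. The 8 genes had a median log2 ratio of -0.86, against -0.14 over all genes. That median lay in a gap between genes and was -0.27 with epcam left out.

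epcam was 12.6-fold lower in E151G, a log2 ratio of -3.63. krt5 was 3.93-fold lower (log2 ratio -1.96), krt17 -1.61 and krt92 -1.45 on the log2 scale. krt8 was 2.21-fold higher, a log2 ratio of 1.14, while krt4, krt15 and krt91 lay between -0.27 and 0.26 as deposited. With equal FPKM sums krt4, krt15 and krt91 were at -1.16, -1.24 and -0.71, so krt4 and krt15 were then past 2-fold lower. The 4 lower genes stayed more than 2-fold lower under each scaling tried, but krt8 had a log2 ratio of 0.17 when the FPKM sums were made equal. The sum of the 9 keratins was 8.70% under WT as deposited, with krt8 and krt91 above and krt5 under their WT levels.

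The mutants were also compared with each other, sharing samples with both comparisons above. krt5 and krt92 were the 2 genes lower in E151G than E151A, at log2 ratios of -1.92 and -1.24, and 0 of the 8 were higher. Over all 16715 genes compared, 9.88% were lower and 10.1% higher. krt17 was at -0.95, and was also past 2-fold with a pseudocount of 0.1 and under each of the 3 other scalings, down to -1.60. epcam was 1.49-fold lower in E151G, a log2 ratio of -0.56, but -1.44 with equal FPKM sums. krt15 had the highest ratio at 0.70, which was -0.18 with equal sums. The median of the 8 genes was -0.56, against 0.09 over all genes. With equal sums these medians were -1.44 and -0.63.

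Embryo keratins differed less between genotypes. In E151A against WT, 0 of the 10 genes were higher and 0 were lower, where 0.990% and 0.996% of 17577 genes were. The ratios ran from -0.41 for krt15 to 0.66 for cyt1l, with a median of 0.04 against 0.02 over all genes. krt4, cyt1 and cyt1l were the 3 genes above 0.3, and their levels put the keratin sum 24.3% above WT.

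In embryo E151G against WT, epcam was 4.19-fold higher, a log2 ratio of 2.01, and was the only one of the 10 genes called higher. Its ratio ranked 12 from the highest of 17581 genes compared, of which 0.637% were higher and 1.79% lower. None of the 10 genes was lower. On the deposited scale, each of the keratins except krt17 had a ratio above 0, from 0.24 for krt5 to 0.87 for cyt1l, with krt91 at 0.72 and cyt1 at 0.70. The median of the 10 genes was 0.44, against 0.04 over all genes, and the 20 skeletal muscle rows compared had a median of 0.46. With equal FPKM sums the median of the 10 genes was 0.09, against -0.27 over all genes. In that setting krt5, krt8 and krt92 were at -0.12, -0.11 and -0.08, and epcam was at 1.65.

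L-carnitine was compared with untreated E151G embryos at the 1 dose sequenced. All 10 genes had a ratio under 0, in a narrow band from -0.61 for cyt1l to -0.34 for krt5, and none passed 2-fold. Over all 17585 genes compared, 9525 had a ratio under 0, while 0.199% were lower and 2.55% higher by 2-fold or more. The median was -0.48, against -0.04 over all genes and -0.54 over the skeletal muscle list. The keratin sum was 27.2% lower and epcam 28.6% lower with the compound, while the skeletal muscle sum was 30.6% lower. These sizes depend on scaling, since all FPKM summed to 739904 in the untreated and 605511 in the treated library. With equal FPKM sums the median of the 10 genes was -0.20, against 0.20 over all genes. The keratins made up 1.24% of all FPKM without and 1.11% with the compound.

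Against WT, which shares libraries with both embryo comparisons above, the L-carnitine sample had keratins close to the WT levels, apart from krt17. The log2 ratio of krt17 ranked 121 from the lowest here, and was -0.18 in untreated E151G against WT. The 9 keratins ran from -0.78 for krt17 to 0.27 for cyt1l on the log2 scale, and their sum was 5.19% above WT. epcam was 2.99-fold higher, a log2 ratio of 1.53, and was the 1 gene of 10 called higher, with 0 lower, where 1.97% of 17731 genes were higher and 0.384% lower. The median of the 10 genes was 0.04, against 0.01 over all genes.

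**Figure D3:**
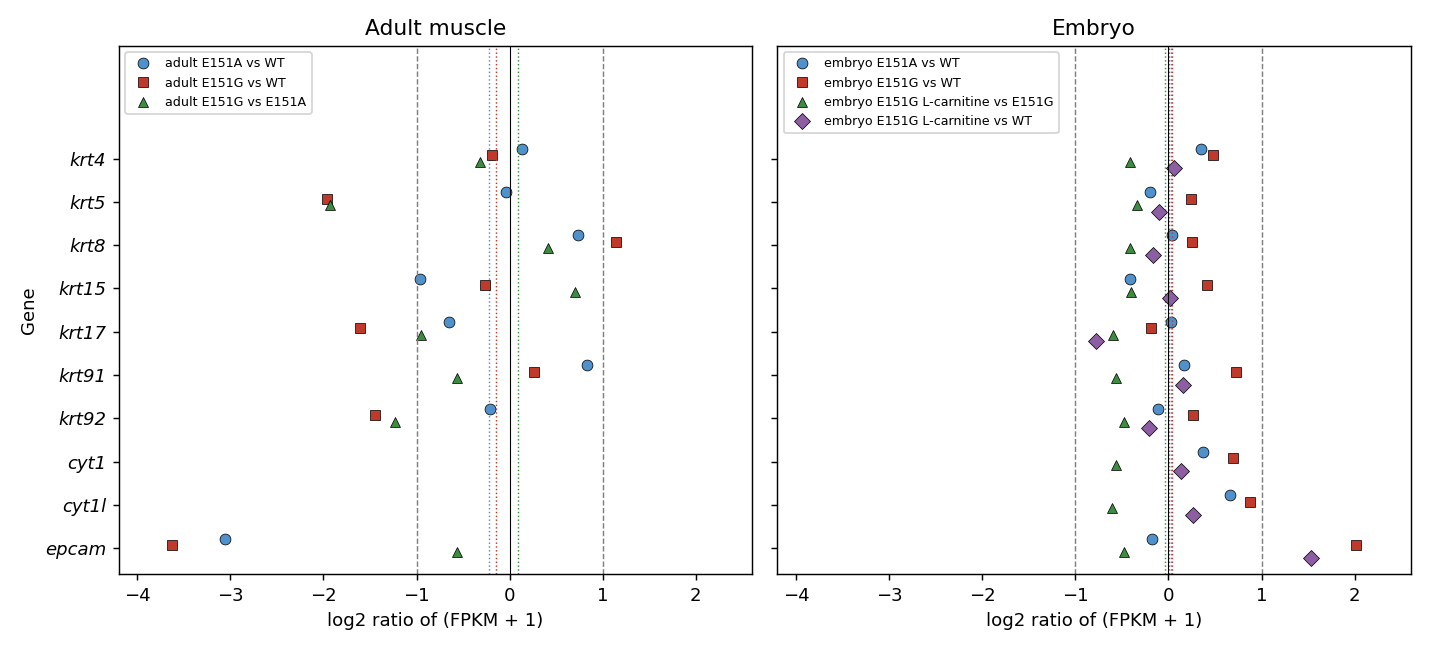
Log2 ratio of (FPKM + 1) of each gene in the 3 adult comparisons (left) and the 4 embryo comparisons (right), with dashed lines at 2-fold and dotted lines at the median of all genes compared. epcam lies at -3.06 and -3.63 in the adult mutants against WT and at 2.01 and 1.53 in the 2 E151G embryo libraries against WT, and all 10 genes lie between -0.61 and -0.34 for L-carnitine against untreated E151G.

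Adult and embryo WT differ in tissue and age and were normalized in separate tables, so their levels are set side by side only. epcam (31.8-fold), krt15 (7.88-fold) and krt92 (3.17-fold) were higher in the adult sample, where 22.8% of 19385 genes were. cyt1, cyt1l, krt4 and krt17 were lower, where 33.2% of genes were, and krt4 was 22.2-fold lower. krt5, krt8 and krt91 lay within 2-fold, with log2 ratios of -0.98, -0.29 and -0.52. The median of the 10 genes was -0.75, against -0.27 over all genes.

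The other keratins in the tables were 13 rows, and krt18, the type I partner of krt8, was at 52.3, 137 and 174 FPKM in adult WT, E151A and E151G. This is the same order of genotypes as for krt8, and it again depended on the scaling. In E151G over E151A the log2 ratio of krt18 was 0.35, and went down to -0.53 under the alternatives tried. krt8 over krt18 was 2.68 in adult WT, 1.70 and 1.78 in the adult mutants, and between 1.38 and 1.66 in embryos. The row named KRT18 (1 of many) on chromosome 6 was at 45.7, 74.6 and 124 FPKM in the adults, and krt94 at 36.5, 79.7 and 103. Their log2 ratios in E151G over E151A went down to -0.15 and -0.51 under the alternatives.

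In adult E151G against WT, these 3 rows had log2 ratios of 1.72, 1.42 and 1.47. With equal FPKM sums, krt18 was at 0.75, KRT18 (1 of many) of chromosome 6 at 0.46 and krt94 at 0.51, still above 0 and no longer past 2-fold. Of the 8 other keratins compared, 4 were higher and 1 was lower in E151A, and 3 were higher and 1 was lower in E151G. Over all genes compared, 9.90% were higher and 19.2% lower in E151A, and 17.4% higher and 25.5% lower in E151G. Summed, the other keratins were at 153, 338 and 419 FPKM in adult WT, E151A and E151G. The 9 chosen keratins therefore made up 89.2%, 81.0% and 73.3% of all keratin FPKM in the adults, and between 87.5% and 91.7% in the embryos.

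krtt1c19e was the most abundant of the other keratins in embryos, at 698, 479, 821 and 561 FPKM in WT, E151A, E151G and E151G with L-carnitine. In adults it was at no more than 0.265 FPKM. Like cyt1 and cyt1l, it was thus present in embryos and nearly absent from the adult samples. icn, ictacalcin, a calcium-binding S100 protein of fish epidermis, was instead abundant at both stages, with 598, 756 and 635 FPKM in the adults and between 271 and 407 in the embryos.

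The lists of other epithelial genes were read beside the members. Of 14 adherens and tight junction genes, 7 were lower and 0 higher in adult E151A, where 19.2% of all genes were lower. In adult E151G 10 were lower and 1, cldn7a, was higher, where 25.5% of all genes were lower. The medians were -0.80 and -1.52. Among the most abundant, the claudin cldn7b was at 71.3, 48.5 and 22.9 FPKM in WT, E151A and E151G, and cldni at 11.4, 9.58 and 4.62. cldnb was at 17.5, 36.0 and 24.4 FPKM and so did not share that order. In embryo E151G against WT, 0 of 13 junction genes compared were higher and 0 lower, with a median of -0.07. Over all genes compared there, 0.637% were higher and 1.79% lower.

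The matriptase list holds the serine protease matriptase, its inhibitors and its receptor substrates, and matriptase is known in human cells to cleave the EPCAM protein. st14a, a matriptase gene, was at 33.0, 14.5 and 7.07 FPKM in adult WT, E151A and E151G, and f2rl1.1, a protease-activated receptor, at 29.9, 8.37 and 6.89. The inhibitor gene spint2 was at 28.3, 19.6 and 19.7 FPKM. Of the 6 genes compared, 2 were lower in E151A and 3 in E151G, where 19.2% and 25.5% of all genes were lower. None of the 6 was higher in either, where 9.90% and 17.4% of all genes were.

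On the deposited scale, none of the compared genes that anchor keratin filaments was called lower in either adult mutant, unlike epcam. Of 12 desmosome genes compared, 0 passed 2-fold in adult E151A, and 1 was higher and 0 lower in E151G. Their median log2 ratios were 0.33 in E151A and -0.26 in E151G. In E151G 5 of the 12 ratios were above 0 and 7 under. The shares of all genes compared were 9.90% higher and 19.2% lower in E151A, and 17.4% higher and 25.5% lower in E151G. jupa, a plakoglobin, was at 49.8, 70.4 and 66.3 FPKM in adult WT, E151A and E151G, perp at 20.7, 33.4 and 29.2, and the plakophilin pkp3a at 11.1, 13.7 and 9.91. Under the alternatives tried, the log2 ratios of jupa, perp and pkp3a in E151G against WT went down to -0.56, -0.46 and -1.05. Hemidesmosome genes, which tie basal cells to the basement membrane, had 1 of 8 higher in E151A and 3 of 10 in E151G, 0 lower in either, and median ratios of 0.35 and 0.67. Of these, plecb was at 9.36, 14.2 and 24.0 FPKM, itga6b at 6.51, 13.3 and 14.7, and cd151 at 6.16, 14.2 and 20.4. These were the 3 genes higher in E151G as deposited. Under the alternatives, the log2 ratios of plecb, itga6b and cd151 in E151G against WT went down to 0.35, 0.18 and 0.69. itgb4 and col17a1b of the same list were not called higher, with log2 ratios against WT of 0.05 and -0.43 in E151G. In E151A the 2 genes were at 0.13 and 0.50. Of the 10 ratios in E151G, 8 were above 0 and 2 under. The skeletal muscle list had a median of 0.88 in that comparison, and the part of muscle RNA in these levels was not tested.

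Of 12 epidermal transcription factors, 4 were lower and 3 higher in adult than in embryo WT, where 33.2% and 22.8% of all genes were. tfap2a was at 1.98 FPKM in adult WT and 148 in embryo WT, gata3 at 4.12 and 38.8, and tfap2c at 1.53 and 32.7. In adult E151G against WT, 3 of 10 compared were lower and 1 was higher, where 25.5% of all genes were lower and 17.4% higher. In each embryo comparison 0 of 11 passed 2-fold, where at most 1.79% of all genes were lower and 2.55% higher.

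Lists of other cell types of skin and viscera were also read. Of the ionocyte genes, slc9a3.2 was at 19.2, 10.6 and 12.2 FPKM in adult WT, E151A and E151G, rhcgb at 3.23, 7.16 and 19.1, and slc12a10.3 at 1.93, 3.25 and 8.53. These named genes were at no more than 0.325 FPKM in any embryo library. Only 4 of the 10 genes on the ionocyte list reached 1 FPKM in each adult sample. The remaining genes of the list were at no more than 0.0954 FPKM in any adult sample. The mucous cell gene agr2 was at 10.4, 10.6 and 6.00 FPKM, and muc5.1 and muc5.2 stayed under 1 FPKM in all 7 conditions. The pigment genes tyrp1b, gch2 and dct were at 166, 124 and 89.0 FPKM in embryo WT and at no more than 1.37 in any adult sample.

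The visceral list was led by fabp10a, a liver fatty acid binding protein, which was at 98.6 FPKM in untreated and 388 in L-carnitine treated E151G embryos. fabp1b.1 was at 28.8 FPKM in embryo WT, and cdh17, a cadherin gene, at 34.1, 47.3 and 70.7 in adult WT, E151A and E151G. Of the muscle genes, actc1b was at 8424 FPKM in adult and 11538 in embryo WT, ckmb at 10613 and 3577, and pvalb2 at 4707 and 8491, while some of the list, such as mylpfb at 0.579 and 1838, were near 0 in adults. In the bone and scale list, bglap was at 18.6, 7.55 and 40 FPKM in the adults, and col10a1a did not exceed 8.78 anywhere.

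Most oocyte genes were lower in both adult mutants than in WT, as epcam was. Of the 11 genes of that list, 9 were lower in E151A and 11 in E151G than in WT, with medians of -1.72 and -2.72. Over all genes compared, 19.2% and 25.5% were lower. The other 2 genes were above WT in E151A, unlike epcam. dazl was at 62.6, 75.7 and 7.98 FPKM in adult WT, E151A and E151G, and ddx4 at 32.9, 54.1 and 4.85. The egg coat gene zp3b was at 754, 158 and 193 FPKM in adult WT, E151A and E151G, zp3a.1 at 690, 285 and 127, and zp2.1 at 635, 222 and 62.3. In embryos no oocyte gene reached 1 FPKM, so their levels did not move with the higher epcam of E151G embryos. The part of oocyte RNA in the adult epcam difference was not tested, and adult libraries cannot be examined singly.

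phex, an endopeptidase gene of the bone list, had the same order of adult genotypes as epcam. It was at 161 FPKM in WT, 27.3 in E151A and 24.5 in E151G. The genes beside epcam differed less. Within 70 kb of it, calm2a, a calmodulin gene, was at 97.5, 91.3 and 74.7 FPKM in adult WT, E151A and E151G. thada was at 2.63, 1.71 and 1.83 FPKM, and the other 4 listed genes stayed under 1 in all 7 conditions. In embryos calm2a was at 206 FPKM in WT and 254 in E151G, against the 4.19-fold difference of epcam.

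**Figure D4:**
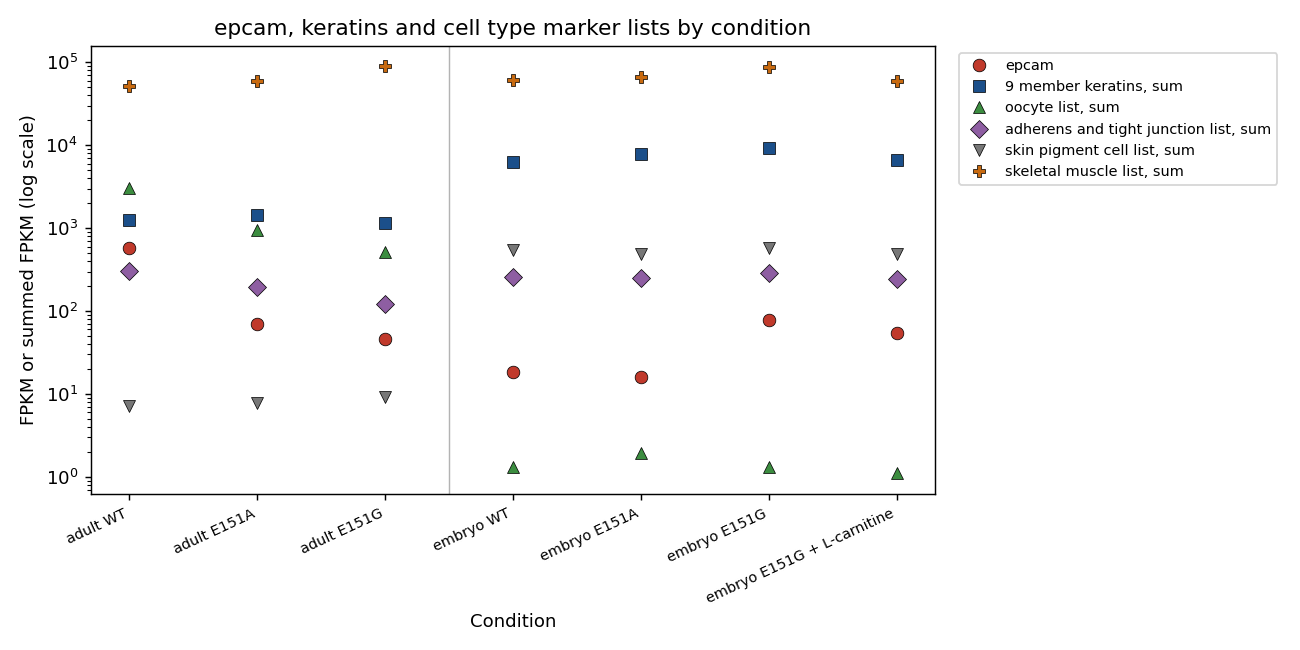
FPKM of epcam and summed FPKM of the 9 keratins and of 4 marker lists in the 7 conditions, on a log axis with 1 point per condition. In the adults epcam and the oocyte sum both run down from WT, from 583 to 46.3 and from 3014 to 512, while in the embryos the oocyte sum stays under 2 and epcam is at 76.9 and 54.9 in the 2 E151G libraries.

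Because they followed different orders, epcam and the keratins had very different proportions. The summed keratins were 2.16 times epcam in adult WT, 20.9 times in E151A and 24.8 times in E151G. In embryos they were 347 and 492 times epcam in WT and E151A, and 120 and 122 times in untreated and treated E151G. The treated and untreated E151G libraries thus had nearly the same proportion of epcam to keratins.

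The genes were not alike in profile over the 7 conditions. The root mean square distance from their median profile, on centred log2 (FPKM + 1), ran from 0.38 for krt91 and 0.48 for krt5 to 4.02 for cyt1 and 4.33 for cyt1l. Among 6757 other genes with a mean FPKM of at least 10, the nearest to that median were rabif, gtf2b, trmt112, nme7, pdcd4a, ppid, tmem243b, agr2, ncl1 and nap1l4b, at distances from 0.11 to 0.20. Of these 10 genes, agr2 was the only one on the epithelial lists. A median over such unlike genes follows krt91 and krt5 and describes neither cyt1, cyt1l nor epcam.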

How the data were processed

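RNA from zebrafish was sequenced after ribosomal RNA removal. The submitters' processing notes name bcl2fastq 2.20, Trimmomatic 0.36, HISAT2, featureCounts 1.6.3 and DESeq2 1.22.2 with build GRCz11. More than 1 library kit is stated, and the use of strand in counting is not. The values are FPKM as deposited by the authors, with the 2 adult libraries of a genotype combined, in 7 tables of 32265 genes. The tables also hold the authors' fold changes and p-values, which were not used. Repeats of a condition across tables differed by over 1% in at most 21 genes, none of them among the 10.

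Ratios were log2 with a pseudocount of 1 and an FPKM minimum of 1 in either condition, computed in Python with pandas. An FPKM at or under 1e-05 was read as 0. No statistical test fits single values. The files hold no fragment counts, so depth is unknown and no counting error can be given. In the lowest embryo values, 1 step was worth 1.34, 0.847 and 1.04 times the WT step in E151A, E151G and the L-carnitine library, so the single libraries differ in scale.

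The genes, lists and rules were chosen with earlier results of these data known. Named were the 10 genes, the 3 most abundant of each list, and the 10 nearest profiles. krt94, cldn7a, mylpfb, dazl, ddx4, itgb4, col17a1b and the neighbours of epcam were added after their values were seen. Of the list names, 6 had no row. No sequence is shown. Alternatives were another pseudocount, other scalings, other FPKM minimums and other fold limits.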

Additional observations from a re-analysis of the deposited data

Results flagged for a closer look

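epcam differed between stages under the same contrast. For E151G against WT its log2 ratio was -3.63 in adult muscle and 2.01 in embryos, opposite in direction and past 2-fold in both. The difference was not tested, since each stage has 1 value per genotype. Of the 112 genes higher in E151G embryos, 16 (14.3%) were also lower in adult E151G, which is 0.379% of the 4222 genes lower there. Over all genes compared at each stage, 25.5% were lower in adult E151G and 0.637% higher in E151G embryos. Each share was under that of all genes, but both describe the same 16 genes, and the genes compared differed between stages. No other gene of the 10 was past 2-fold in opposite directions at the 2 stages.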

How the results depend on the processing

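Of 10 single ratios past 2-fold in the 7 comparisons, 9 kept their direction and stayed past 2-fold under every alternative, and krt8 in adult E151G against WT was the exception, at 0.17 with equal FPKM sums. Of all 64 single ratios, 13 changed sign under at least 1 alternative, none of them past 2-fold as reported. The E151A median in adults was -0.13 as reported and 0.22 under median-of-ratios scaling, where that of all genes was 0.06. With equal sums, those of embryo E151A and of L-carnitine against WT were -0.15 and -0.04. Over all genes they were then -0.14 and -0.06. With equal FPKM sums the median of the genes was -1.44 for adult E151G against E151A, with 6 genes lower. Over all 16715 genes compared, the median was then -0.63 and 4938 were lower. Against WT the median of the genes was -1.80, with 6 lower and 0 higher. Over all 16572 genes compared there, the median was -0.93, with 7877 lower and 840 higher. In that setting 2 genes were lower in adult E151A, as were 3668 of all 16865 compared. Leaving mitochondrial genes out of the sums gave -1.16 and 5 lower genes against E151A, and 0 higher against WT. Over all genes compared, the median was then -0.40 against E151A with 3438 lower, and 1638 were higher against WT. Under median-of-ratios scaling 2 genes were higher in adult E151A, as were 2591 of all genes compared. The adult E151G median against WT was -0.23 with no FPKM minimum, -0.27 without epcam and -0.23 with the chromosome 19 genes summed, the last 2 chosen after seeing the data.

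At a fold limit of 1.5, 2 genes were higher and 3 lower in adult E151A, 1 was higher in adult E151G against E151A, 1 was higher in embryo E151A and 4 in embryo E151G. At that limit 2 were lower with L-carnitine against untreated and 1 against WT. At a limit of 3, 1 gene was lower in adult E151G against E151A, 0 were higher in it against WT, and 0 were higher with L-carnitine against WT. The shares of all genes past these limits are not given here, so these counts have no background beside them. Equal sums moved the median of all genes by -0.78 in adult E151G and by -0.30 in embryo E151G against WT. Measured against all keratins, chosen after seeing the data, 63 of 63 shares stayed within 1.5 times their value. Against all rows named krt, cyt1 or icn, which include the S100 gene icn, 26 did not. Summing near-identical proteins was not run, as no protein sequences were used here. No paired analysis was possible because the tables give 1 value per genotype and stage.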
